A study of Mus musculus with 6 samples.

Results

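The RNA of 10 genes of ATR and MDC1 damage signalling, Atr, Atrip, Topbp1, Mdc1, H2afx, Brca1, Bard1, Rnf8, Hus1 and Rad1, was followed in mouse pachytene cells with and without MAPS, a protein of pachytene spermatocytes. The genes were chosen by name, from what they are known to do in meiotic silencing, but with earlier results of these data known. All 10 were found among the 54532 genes of the deposited tables. RNA sequencing covered 3 groups of 2 libraries each. EE_KO cells carried the MAPSEE allele on a MAPS-/- background and are labelled as overexpressing MAPS there; KO cells were MAPS-/- without that allele; WT cells carried neither change. Mice were about 80 days old, 3 mice of the same genotype served each group, and pachytene cells were isolated from testis by STA-PUT, a sedimentation of cells by size through a gradient. Not stated in the labels are the pooling of mice, the meaning of the letters EE and the promoter of that allele. Levels are FPKM, reads scaled by gene length and by library depth, as the authors deposited them.

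In male meiosis the X and Y chromosomes remain largely unpaired and are silenced in a nuclear domain called the sex body. BRCA1 on the unpaired axes helps to bring in the kinase ATR with its partner ATRIP, TOPBP1 activates ATR, and ATR phosphorylates the histone variant H2AX. MDC1 binds phosphorylated H2AX and carries ATR and TOPBP1 out into the chromatin loops, RNF8 adds ubiquitin there, and HUS1 and RAD1 belong to the checkpoint clamp that loads on damaged DNA.

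The comparison asked whether the genes that carry out silencing are themselves short of RNA when MAPS is missing. The answer differed from gene to gene. In KO cells RNA of Mdc1 stood at 23.4% of its WT level, Atr at 26.4% and Bard1 at 45.2%, while Brca1 stood at 2.10-fold and H2afx at 1.38-fold its WT level. Atrip, Topbp1, Rnf8, Hus1 and Rad1 did not pass the test, which 84.8% of all genes tested passed in this comparison. In EE_KO cells none of the 10 genes differed from WT by the test, where only 0.0377% of all genes tested did. Mdc1, Atr and Bard1 were 4.19-fold, 4.18-fold and 2.19-fold above KO in EE_KO cells.

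**Figure D1:**
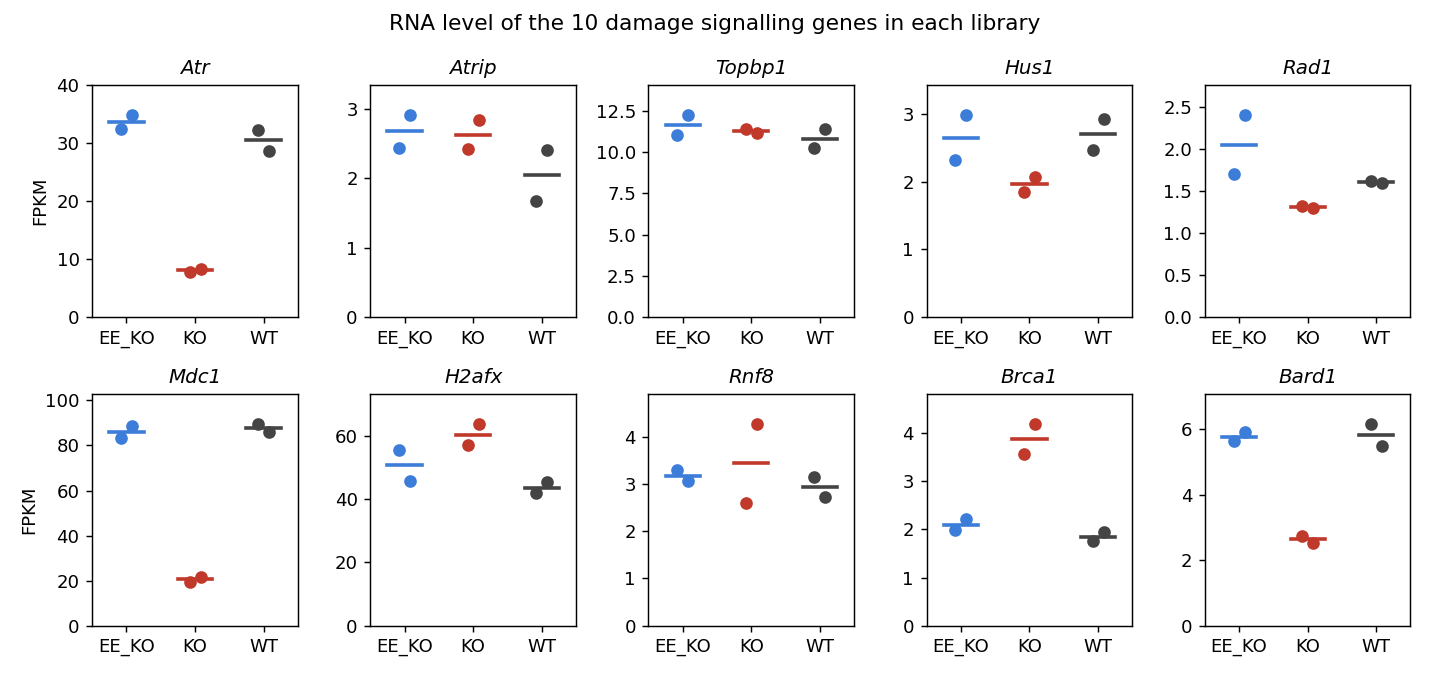
RNA level in FPKM (vertical axes, each from 0) of the 10 genes in the libraries of EE_KO, KO and WT (horizontal axis). Points are libraries and bars are means of 2; the KO points of Atr lie at 7.75 and 8.36 FPKM, far under those of EE_KO and WT, while those of Topbp1 lie among the others.

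The libraries differed widely beyond these genes. The MAPS gene 1700102P08Rik stood at 108.6 and 82.2 FPKM in EE_KO, at 7.97 and 10.1 in KO and at 157.0 and 150.2 in WT. In mean FPKM its RNA in EE_KO was 10.6-fold that of KO and 62.1% of that of WT (limma adjusted p = 0.320 against WT). Overexpression in the label thus does not mean a level above WT in these libraries. The 12 markers of mid to late pachytene, among them Ldhc and Ybx2, summed to 5770 and 6191 FPKM in EE_KO, to 186.5 and 227 in KO and to 6679 and 6110 in WT. All 12 fell in KO against WT and all 12 rose in EE_KO against KO, so the KO libraries hold little RNA of these mid to late pachytene markers. Their label says pachytene without a substage. The 10 Sertoli markers (such as Clu and Cldn11) all rose in KO, with sums of 2833 to 3003 FPKM there, against 211.6 to 211.7 in WT, and so did all 8 Leydig markers (such as Insl3 and Cyp17a1), with 2142 to 2234 FPKM in KO, against 58.0 to 109 in WT. In EE_KO the Sertoli sums were 191 to 348 FPKM and the Leydig sums 84.3 to 177. Of 10 spermatogonial markers 8 were tested, of which 7 rose and 1 fell in KO (sums of 193 to 231 FPKM in KO, 37.1 to 40.02 in WT); 2 of the 7, Zbtb16 and Sall4, passed the filter on low levels through KO alone, and Gfra1, too low to test, averaged 0.433 FPKM in KO and 1.08 in WT. All 10 spermatid markers fell (sums of 18.4 to 20.8 FPKM in KO, 1812 to 3295 in WT). Of 8 markers of early meiosis 3 rose and 3 fell, with sums of 147 to 175 FPKM in KO and 223 to 230.1 in WT. Markers of peritubular, endothelial and blood cells summed to 26.3 to 28.1 FPKM in KO and 3.19 to 3.48 in WT, and those of leukocytes to 17.0 to 23.7 in KO and 2.52 to 3.34 in WT; most of the few that could be tested passed the filter through KO alone, so their calls are not counted. Lhcgr among the Leydig markers and Prdm9 among the 3 rises of early meiosis passed in the same way. Hbb-bs and C1qa were at 0 in at least 1 library and no other marker was. The part of these markers in the changes given next was not tested, and fewer cells of a type cannot be told apart from less RNA per cell.

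**Figure D2:**
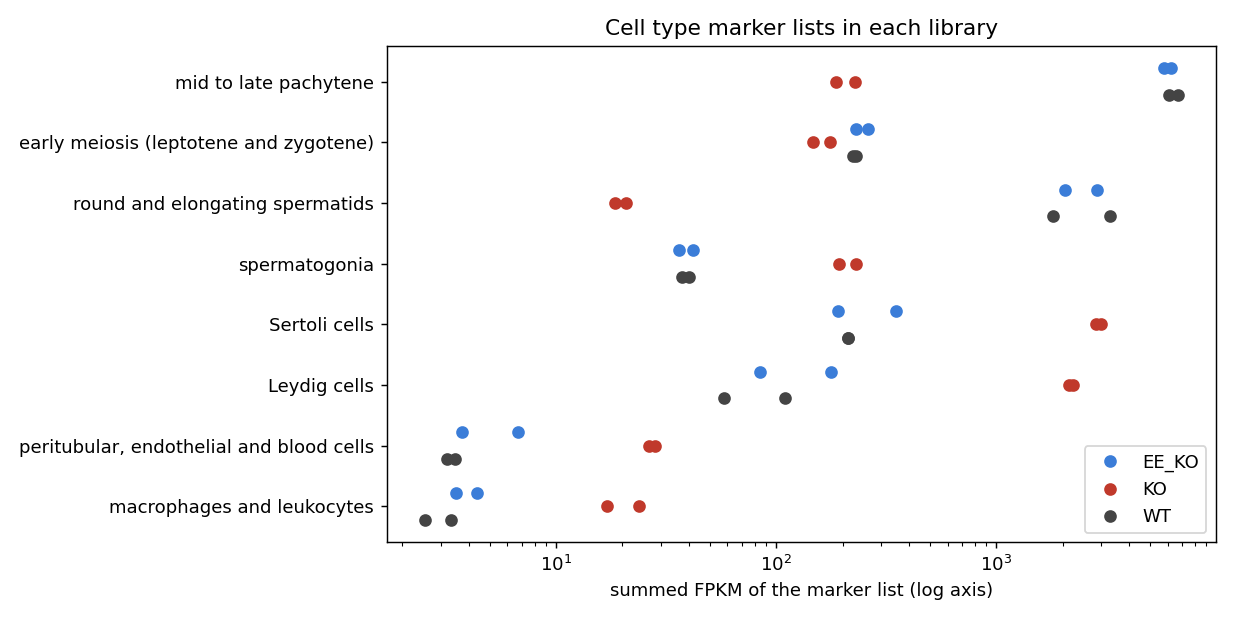
Summed FPKM of each marker list (horizontal log axis) in every library, by list (vertical axis) and group (colour). Pachytene sums of the KO libraries, 186.5 and 227 FPKM, lie far under those of EE_KO and WT, and Sertoli sums of KO, 2833 and 3003, far over them.

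The genes lie on autosomes (GRCm38, GENCODE M21 annotation). Atr spans 95857597 to 95951781 on chromosome 9 (plus strand), where Topbp1 (103305215 to 103350428, plus), Atrip (109057933 to 109074124, minus) and H2afx (44334694 to 44336077, plus) lie too. Chromosome 17 carries Mdc1 (35841515 to 35859670, plus) and Rnf8 (29614790 to 29644991, plus), and chromosome 11 carries Brca1 (101488764 to 101551955, minus) and Hus1 (8993137 to 9011191, minus). Bard1 lies on chromosome 1 (71027498 to 71103146, minus) and Rad1 on chromosome 15 (10486018 to 10499063, plus). Exons shared with other genes can blur a count, since the sources used here give neither the strand nor the counting rule. In Atrip 1147 exonic bases are also those of Trex1, a gene wholly inside Atrip's exons that is listed at 0 in all 6 libraries, so part of Atrip's RNA may not be in its value. Atr shares 726 bases, 3.07% of its exonic length, with the antisense gene 1700065D16Rik, which averaged 4.83 FPKM in EE_KO, 0.275 in KO and 4.66 in WT. Rnf8 shares 1542 bases with Gm28043, listed at 0.788 FPKM in KO and 0.220 in WT. H2afx belongs to the histone H2A family, and the handling of reads that its relatives share is unknown here.

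Any part of promoter sequence in these changes was not tested. The promoters of the 3 genes that fell in KO and of Brca1, which rose beside its partner's fall, are shown for comparison only. Each runs from 250 bases before to 50 bases after the RefSeq start (GRCm38.p6), 5′ to 3′ on the strand of the gene: chr9:95857347-95857646 (plus), chr17:35841248-35841547 (plus), chr1:71102923-71103222 (minus) and chr11:101551906-101552205 (minus). Capitals mark matches to a MYB motif (CNGTTG) or an E2F motif (TTTNNCGC) on either strand, both picked after the RNA values were seen.
Atr: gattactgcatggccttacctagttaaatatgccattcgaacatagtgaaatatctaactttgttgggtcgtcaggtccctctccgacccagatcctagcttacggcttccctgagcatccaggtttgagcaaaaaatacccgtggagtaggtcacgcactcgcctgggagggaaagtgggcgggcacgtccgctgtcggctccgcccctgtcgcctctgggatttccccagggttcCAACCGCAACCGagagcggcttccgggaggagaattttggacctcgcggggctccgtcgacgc
Mdc1: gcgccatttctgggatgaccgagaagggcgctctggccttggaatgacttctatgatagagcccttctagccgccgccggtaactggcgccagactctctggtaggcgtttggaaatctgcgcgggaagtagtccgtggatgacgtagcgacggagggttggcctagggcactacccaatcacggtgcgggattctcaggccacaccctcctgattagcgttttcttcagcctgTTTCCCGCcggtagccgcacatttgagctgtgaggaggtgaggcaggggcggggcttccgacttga
Bard1: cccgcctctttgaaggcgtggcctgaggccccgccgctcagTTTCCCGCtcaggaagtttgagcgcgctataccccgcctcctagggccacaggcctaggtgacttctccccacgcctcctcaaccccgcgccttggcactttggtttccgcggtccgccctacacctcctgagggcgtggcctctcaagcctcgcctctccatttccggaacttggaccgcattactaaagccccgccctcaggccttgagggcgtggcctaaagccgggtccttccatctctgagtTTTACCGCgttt
Brca1: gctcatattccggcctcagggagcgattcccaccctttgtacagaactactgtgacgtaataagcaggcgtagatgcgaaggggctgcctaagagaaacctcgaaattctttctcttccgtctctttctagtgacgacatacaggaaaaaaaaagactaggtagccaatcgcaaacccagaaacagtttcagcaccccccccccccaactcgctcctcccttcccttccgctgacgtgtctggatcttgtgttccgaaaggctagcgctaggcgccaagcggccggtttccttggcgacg
Atr held 2 MYB matches end to end, at -13 and -7 from its start site, and no E2F match. Mdc1 held a single E2F match at -16, and Bard1 held 2, at -209 and 38. Brca1 held neither but had 3 matches to TGACG, the core of the CREB motif. Of the genes that fell, Atr and Mdc1 each held 1 such match, at -181 and -110, and Bard1 held none. Over the 9 members with a promoter in the RefSeq table, 4 held the MYB motif and 3 the E2F motif, where 35.1% and 5.27% of all 27025 promoters do. In Topbp1, not printed here, a MYB match at -135 was followed directly by an E2F match at -129. Of the other motifs searched on both strands, NF-Y (CCAAT) matched in 4 of the 9 (37.9% of all promoters), TGACG in 6 (21.02%) and the NRF1 motif in 1, Rnf8 (4.78%). CG dinucleotides numbered 22 in the Atr window, 22 in Mdc1, 23 in Bard1 and 19 in Brca1, against a median of 7 over all promoters. The E2F, TGACG and NRF1 letters contain CG, and the shares over all promoters were not matched for CG. A match describes letters only and says nothing of binding. The RefSeq starts also differ from the GENCODE gene ends given above. Bard1 begins at 71103146 on the minus strand there, so most of its window lies inside the gene. For Mdc1 and Rnf8 the bases just after the RefSeq start were not found in a GENCODE transcript of the gene.

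Every member stood above 1 FPKM in all 6 libraries, so none entered the test through a single group. Over all 15907 genes tested, 84.8% were called in KO against WT (adjusted p below 0.05), 37.7% up and 47.1% down. Of the 10 members 2 were called up and 3 down, fewer than the share of all genes called, and the median log2 change of the members was -0.06, against -0.26 for all genes. The KO and WT libraries did not overlap for 8 of 10 members, where 92.7% of all genes did not.

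Among the genes of the kinase itself, Atr changed most and its partners did not pass the test. Atr, the kinase, stood at 32.5 and 34.8 FPKM in EE_KO, at 7.75 and 8.36 FPKM in KO and at 32.3 and 28.6 FPKM in WT. The KO libraries lay far under the others and those of EE_KO and WT nearly touched. The log2 change of Atr in KO against WT was -1.80 (SE 0.11, adjusted p = 7.91e-06), and in EE_KO against KO it was 1.94 (SE 0.11, adjusted p = 6.39e-06). These values rest on 3289 to 12318 reads of Atr per library, recovered from FPKM and gene length.

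Atrip, the partner that holds ATR at coated single-stranded DNA, stood at 2.44 and 2.91 FPKM in EE_KO, at 2.43 and 2.84 FPKM in KO and at 1.68 and 2.41 FPKM in WT. Both KO libraries were above the WT ones, the nearer by little. Its log2 change in KO against WT was 0.26 with a 95% interval of -0.16 to 0.69 (adjusted p = 0.204), which leaves room for a rise. The interval lies above the change of Atr, but the added 1 shrinks changes of a gene as low as Atrip, so the sizes are not directly comparable. Topbp1, the activator of ATR, stood at 11.1 and 12.2 FPKM in EE_KO, at 11.4 and 11.2 FPKM in KO and at 10.2 and 11.4 FPKM in WT. The groups overlapped, and the log2 change in KO against WT was 0.06 (95% interval -0.22 to 0.34, adjusted p = 0.645). On the TPM scale, where the median of all genes lies at 0.12 in place of -0.26, Topbp1 (0.49, adjusted p = 0.00916) and Atrip (0.73, adjusted p = 0.0280) were called up, and with quantile normalization, where that median lies at 0.04, Topbp1 was called up too (0.33, adjusted p = 0.0241). Adjusted p ranged from 0.00916 to 0.949 for Topbp1 and from 0.0280 to 0.673 for Atrip over the alternatives. Relative to the median of all genes, Topbp1 stood 0.31 higher on the deposited scale and 0.38 higher with TPM.

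The ratio of Atr to Atrip FPKM was 13.3 and 11.9 in the EE_KO libraries, 3.19 and 2.94 in the KO libraries and 19.3 and 11.9 in the WT libraries. The ratio of Atr to Topbp1 FPKM was 2.93 and 2.85 in EE_KO, 0.678 and 0.749 in KO and 3.16 and 2.51 in WT. Thus Atr RNA, per length, exceeded that of Topbp1 in EE_KO and WT and lay under it in KO. The order in KO depends on the lengths used. In recovered reads Atr exceeded Topbp1 there, at 3289 and 3431 against 2304 and 2176. With 2 libraries against 2 no exact test can go below p = 0.333, so these ratios are given without one.

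Hus1 and Rad1 encode subunits of the checkpoint clamp. Hus1 stood at 2.32 and 2.98 FPKM in EE_KO, at 1.85 and 2.07 FPKM in KO and at 2.47 and 2.93 FPKM in WT. Rad1 stood at 1.70 and 2.40 FPKM in EE_KO, at 1.32 and 1.29 FPKM in KO and at 1.62 and 1.60 FPKM in WT. Both genes were lowest in the KO libraries, without overlap, but the log2 changes in KO against WT of -0.32 for Hus1 (95% interval -0.71 to 0.07, adjusted p = 0.106) and -0.18 for Rad1 (-0.58 to 0.22, adjusted p = 0.348) did not pass. Rad1 in EE_KO against KO had a log2 change of 0.39 (adjusted p = 0.0625); it was called without EE_KO replicate 1 (0.56, adjusted p = 0.0288), without a variance trend (0.39, adjusted p = 0.0421) and with voom on recovered reads (0.63, adjusted p = 0.0231), in a range of 0.0231 to 0.708 over the alternatives. The ratio of Hus1 to Rad1 FPKM stayed between 1.24 and 1.83 in all 6 libraries.

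At the chromatin end of the pathway, Mdc1 and H2afx moved apart. Mdc1, the adaptor that reads phosphorylated H2AX, stood at 83.3 and 88.6 FPKM in EE_KO, at 19.2 and 21.8 FPKM in KO and at 89.6 and 85.97 FPKM in WT. No KO library came near the others, and EE_KO and WT overlapped. The log2 change of Mdc1 was -2.05 in KO against WT (SE 0.10, adjusted p = 3.43e-06) and 2.02 in EE_KO against KO (SE 0.10, adjusted p = 3.98e-06), on 2565 to 9845 recovered reads. H2afx, the histone variant that ATR phosphorylates, stood at 55.7 and 45.7 FPKM in EE_KO, at 57.03 and 63.8 FPKM in KO and at 41.9 and 45.3 FPKM in WT. Both KO libraries were above both WT libraries, and EE_KO replicate 1 lay just under the lower KO library. The log2 change of H2afx in KO against WT was 0.46 (SE 0.13, adjusted p = 0.0121). The call was lost without WT replicate 1 (0.40, adjusted p = 0.0673) and without KO replicate 2 (0.38, adjusted p = 0.0663), with adjusted p from 0.000351 to 0.0673 over all alternatives.

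In EE_KO against KO the log2 change of H2afx was -0.25 (95% interval -0.56 to 0.05, adjusted p = 0.103). It was called down with TPM (-0.66, adjusted p = 0.00715), with quantile normalization (-0.88, adjusted p = 0.00136) and without EE_KO replicate 1 (-0.39, adjusted p = 0.0435), in a range of 0.00136 to 0.488. The ratio of H2afx to Mdc1 FPKM was 0.668 and 0.516 in EE_KO, 2.96 and 2.93 in KO and 0.468 and 0.527 in WT. RNA of the histone variant thus outnumbered that of its reader, per length, in the KO libraries alone of the 6. That order too depends on the lengths used. In recovered reads H2afx lay under Mdc1 in KO, at 1418 and 1533 against 2565 and 2809. Rnf8, the ubiquitin ligase that MDC1 brings in, stood at 3.29 and 3.07 FPKM in EE_KO, at 2.61 and 4.27 FPKM in KO and at 3.15 and 2.72 FPKM in WT. The KO libraries lay on either side of the other 4, and the log2 change of Rnf8 in KO against WT was 0.15 (95% interval -0.34 to 0.64, adjusted p = 0.507).

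Brca1 and Bard1 encode the partners of a ubiquitin ligase and moved in opposite directions. Brca1 stood at 1.99 and 2.21 FPKM in EE_KO, at 3.57 and 4.19 FPKM in KO and at 1.77 and 1.94 FPKM in WT. Bard1 stood at 5.62 and 5.93 FPKM in EE_KO, at 2.74 and 2.52 FPKM in KO and at 6.16 and 5.49 FPKM in WT. For both genes the KO libraries stood clear of the other groups, above them for Brca1 and under them for Bard1. Brca1 rose in KO against WT by 0.77 on the log2 scale (SE 0.15, adjusted p = 0.00208), and its change in EE_KO against KO was -0.65 (SE 0.15, adjusted p = 0.00494). Bard1 had a log2 change of -0.91 in KO against WT (SE 0.13, adjusted p = 0.000497). In EE_KO against KO its log2 change was 0.90 (SE 0.13, adjusted p = 0.000536).

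The ratio of Brca1 to Bard1 FPKM was 0.354 and 0.373 in EE_KO, 1.30 and 1.66 in KO and 0.287 and 0.353 in WT. Bard1 RNA exceeded Brca1 RNA per length in each EE_KO and WT library, and Brca1 exceeded Bard1 in both KO libraries. Beside Brca1 and H2afx, which rose, the Sertoli, Leydig and spermatogonial marker sums were higher in KO than in WT, and beside Atr, Mdc1 and Bard1, which fell, the pachytene and spermatid sums were lower; their part in these changes was not tested.

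**Figure D3:**
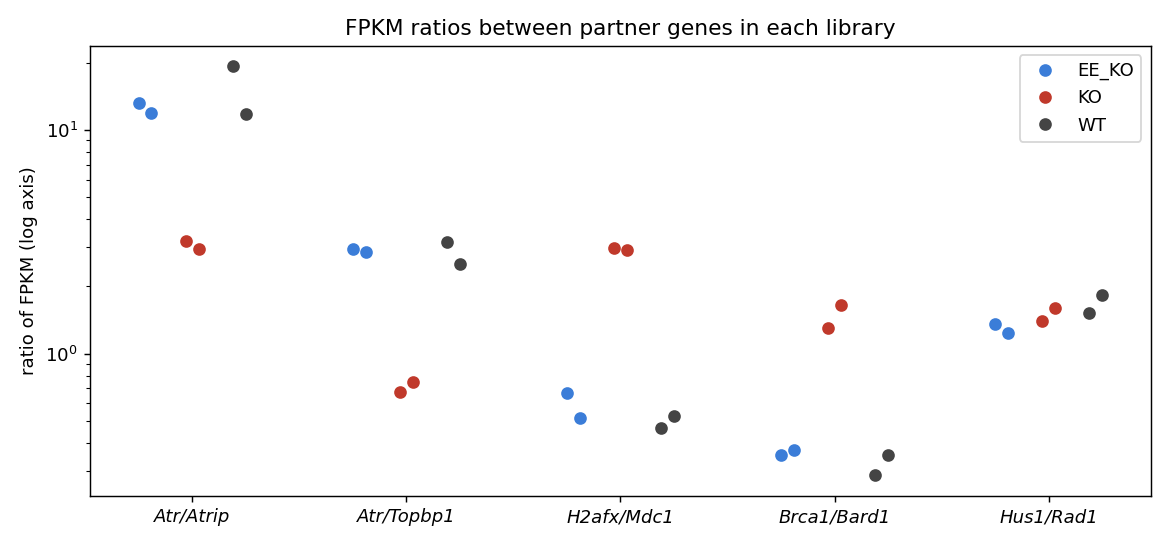
FPKM ratio between partner genes (vertical log axis) in each library of EE_KO, KO and WT, by pair (horizontal axis). The KO libraries stand apart for Atr/Atrip, Atr/Topbp1, H2afx/Mdc1 and Brca1/Bard1, and lie near the others for Hus1/Rad1 (1.40 and 1.60 in KO).

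The 10 members summed to 199.8 and 200.9 FPKM in EE_KO, to 110.0 and 122 FPKM in KO and to 191 and 188 FPKM in WT. Atr and Mdc1 supplied 57.9% and 61.4% of that sum in EE_KO, 24.5% and 24.7% in KO and 63.9% and 60.8% in WT. Without them the other 8 members summed to 84.1 and 77.5 FPKM in EE_KO, to 82.97 and 92.1 in KO and to 69.0 and 73.8 in WT. Most of that is H2afx: the remaining 7 summed to 28.4 and 31.7 FPKM in EE_KO, to 25.9 and 28.3 FPKM in KO and to 27.1 and 28.5 FPKM in WT, and KO and WT overlapped.

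The order of levels changed accordingly. In EE_KO and WT the order from the top was Mdc1, H2afx, Atr, Topbp1 and Bard1, and neighbours in this part of the order did not overlap. Mdc1 lay above 95.9% of the genes tested in EE_KO, above 84.9% in KO and above 95.7% in WT. In KO the order ran H2afx, Mdc1, Topbp1, Atr and Brca1, again without overlap down to Brca1. Lower in the order, Atrip overlapped Hus1, and Brca1 overlapped Rad1, in EE_KO; Brca1 overlapped Rnf8, Rnf8 overlapped Atrip, and Atrip overlapped Bard1, in KO; and Rnf8 overlapped Hus1, and Atrip overlapped Brca1, in WT. These comparisons use the exonic length of all annotated isoforms, 23629 bases for Atr and 1384 for H2afx, which sets the level of each gene.

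With MAPS present on the KO background, the 10 genes lay near their WT levels. In EE_KO against WT limma called none of the members, where 0.0377% of all genes were called, 0.0189% up and 0.0189% down; none had an unadjusted p under 0.05, and voom on recovered reads called none. The log2 changes ran from -0.03 for Mdc1 to 0.28 for Atrip, with a median of 0.11 against 0.00432 for all genes. For Atr the 95% interval was -0.13 to 0.41 and for Mdc1 -0.28 to 0.22. For Bard1 it was -0.33 to 0.31 and for Brca1 -0.23 to 0.48. Intervals were wider for Rnf8 (-0.40 to 0.58) and Atrip (-0.15 to 0.71), so a moderate change of those could have been missed. The libraries of EE_KO and WT did not overlap for 5 of 10 members, where 36.3% of all genes did not.

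In EE_KO against KO 3 members were called up (Atr, Mdc1 and Bard1) and 1 down (Brca1), where 84.2% of all genes were called, 46.8% up and 37.4% down. The groups did not overlap for 7 of 10 members, against 92.7% of all genes. This comparison shares its KO libraries with KO against WT, and the 2 values of Atr, a log2 change of -1.80 for KO over WT and of 1.94 for EE_KO over KO, are given side by side for that reason only.

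**Figure D4:**
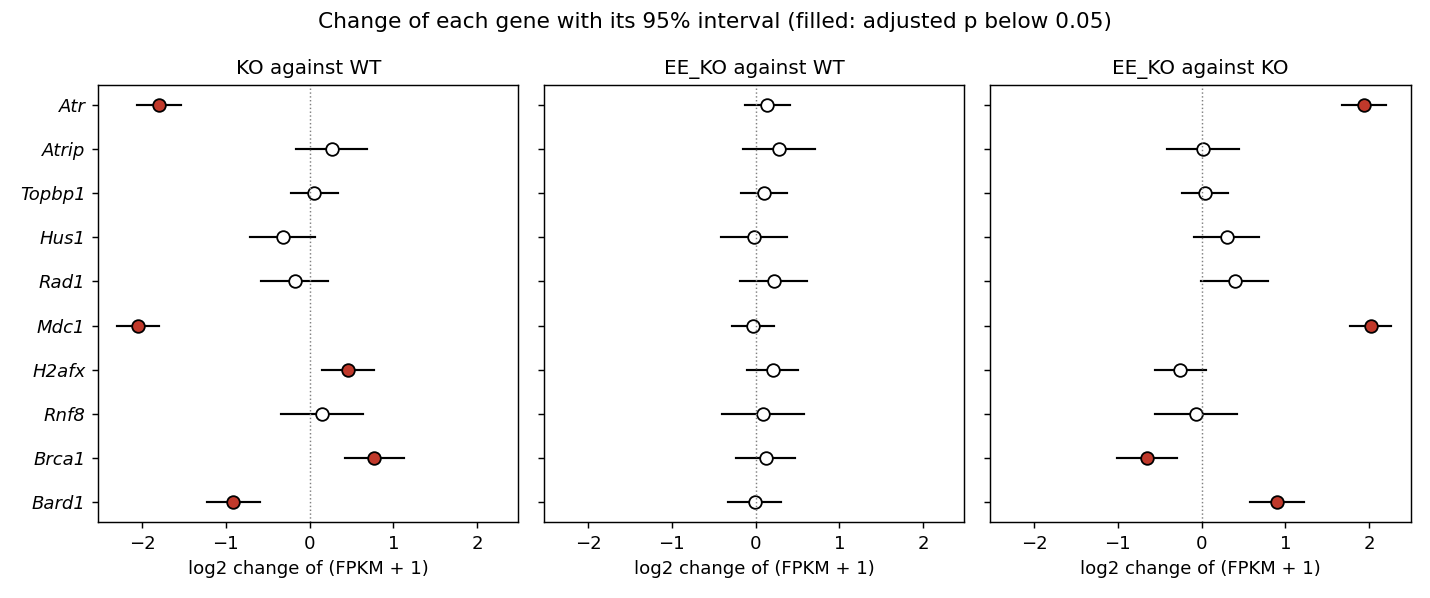
Log2 change of FPKM + 1 (horizontal axes) for each gene (vertical axis) for the 3 comparisons, KO over WT, EE_KO over WT and EE_KO over KO. Points are limma estimates with 95% intervals, filled where adjusted p was below 0.05: 5 genes in KO against WT, none in EE_KO against WT and 4 in EE_KO against KO.

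Other genes of the pathway were read from 4 lists of 52 genes, of which 50 were high enough to test. In KO against WT 10 of the 50 rose, 24 fell and 16 did not pass, with a median of -0.34 against -0.26 for all genes. Of all genes tested 84.8% were called in this comparison, 37.7% up and 47.1% down. The counts of the single lists below stand beside the same shares. Among the 10 rises Clspn and Brcc3 passed the filter on low levels through KO alone, so their calls are no support for a rise. With TPM the calls of the 50 were 18 up and 18 down, and with quantile normalization 17 up and 17 down. Over all genes 44.4% of calls were up on the deposited scale, 51.9% with TPM and 51.1% with quantile normalization. In EE_KO against WT limma called none of the 50, with 1 at an unadjusted p under 0.05 and none by voom, where 0.0377% of all genes were called. In EE_KO against KO 26 rose and 10 fell, where 46.8% of all genes were called up and 37.4% down. With TPM 17 of the 50 rose and 18 fell there, and with quantile normalization 20 rose and 15 fell.

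Of 17 genes that load ATR or act after it 5 rose and 8 fell in KO against WT, but 7 rose and 6 fell with TPM and 6 rose and 5 fell with quantile normalization. Clspn, an adaptor of the downstream kinase and among the 5, passed the filter on low levels through KO alone. The falls were largest in Rpa1, the large subunit of the protein that coats single-stranded DNA, with 68.9 and 67.3 FPKM in EE_KO, 12.6 and 11 in KO and 90.7 and 65.7 in WT (-2.61, SE 0.16, adjusted p = 7.83e-06), and in Rfc2, a subunit of clamp loaders (-2.23, SE 0.13, adjusted p = 5.23e-06). The rises were largest in Rpa3, the small subunit of the same coat, with 1.62 and 1.94 FPKM in EE_KO, 9.02 and 7.45 in KO and 2.70 and 1.63 in WT (1.56, SE 0.20, adjusted p = 0.000277), and in Rfc5, another loader subunit (1.53, SE 0.14, adjusted p = 4.43e-05). These genes were named as the largest called rises and falls of the list, so that choice sets their opposite directions. Of the other Rpa and Rfc genes in the list, Rpa2 rose (0.98), Rfc4 fell (-0.88) and Rfc3 did not pass (-0.34).

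Of 15 genes tested in the MDC1, ATM and ubiquitin arm 3 rose and 7 fell, against 7 and 6 with TPM and 6 and 6 with quantile normalization. Atm, the kinase related to ATR that acts early in recombination, stood at 1.35 and 1.21 FPKM in EE_KO, at 6.0 and 6.61 in KO and at 0.960 and 1.26 in WT (1.79, SE 0.15, adjusted p = 3.08e-05). Brcc3, an X-linked deubiquitinase of the BRCA1-A complex, stood at 0.294 and 0.195 FPKM in EE_KO, at 3.03 and 2.98 in KO and at 0.0634 and 0.218 in WT (1.82, SE 0.16, adjusted p = 3.40e-05); it passed the filter on low levels through KO alone. Pias4, a SUMO ligase, fell by 1.87 (SE 0.10, adjusted p = 4.43e-06), and Nbn, of the complex that senses broken ends, fell by 1.21 (SE 0.15, adjusted p = 0.000227). Atm and Atr thus lay on opposite sides, at 1.79 and -1.80 on the scale log2(FPKM + 1) in KO against WT. The added 1 understates the change of Atm, a low gene. In mean FPKM Atm rose 5.68-fold and Atr fell 3.78-fold. Chek2, the kinase downstream of ATM, was too low to test, with 0.478 and 0.445 FPKM in EE_KO, 1.89 and 1.65 in KO and 0.286 and 0.638 in WT.

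Of 5 BRCA1 partners tested 3 fell and none rose, and this count was the same with TPM; with quantile normalization 1 rose. Bap1, a deubiquitinase that binds BRCA1, fell by 1.26 (SE 0.11, adjusted p = 3.28e-05) and Rbbp8, which starts the resection of broken ends, by 0.76 (SE 0.11, adjusted p = 0.000533). Brip1, a helicase that binds BRCA1, was too low to test. It stood higher in KO, at 1.21 and 1.45 FPKM, than in EE_KO (0.513 and 0.681) or WT (0.422 and 0.461). Of 13 genes of the chromosome axis and sex body 2 rose and 6 fell, against 4 and 3 both with TPM and with quantile normalization. Scml2, an X-linked Polycomb protein of the germ line, stood at 1.51 and 1.35 FPKM in EE_KO, at 14.8 and 15.0 in KO and at 1.63 and 1.79 in WT (2.55, SE 0.13, adjusted p = 3.76e-06). Cbx3, a heterochromatin protein, rose by 0.39 (SE 0.13, adjusted p = 0.0238). Sycp2, of the axis of meiotic chromosomes, fell by 1.88 (SE 0.13, adjusted p = 1.27e-05) and Fancd2, of the crosslink repair pathway, by 1.47 (SE 0.12, adjusted p = 2.38e-05).

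**Figure D5:**
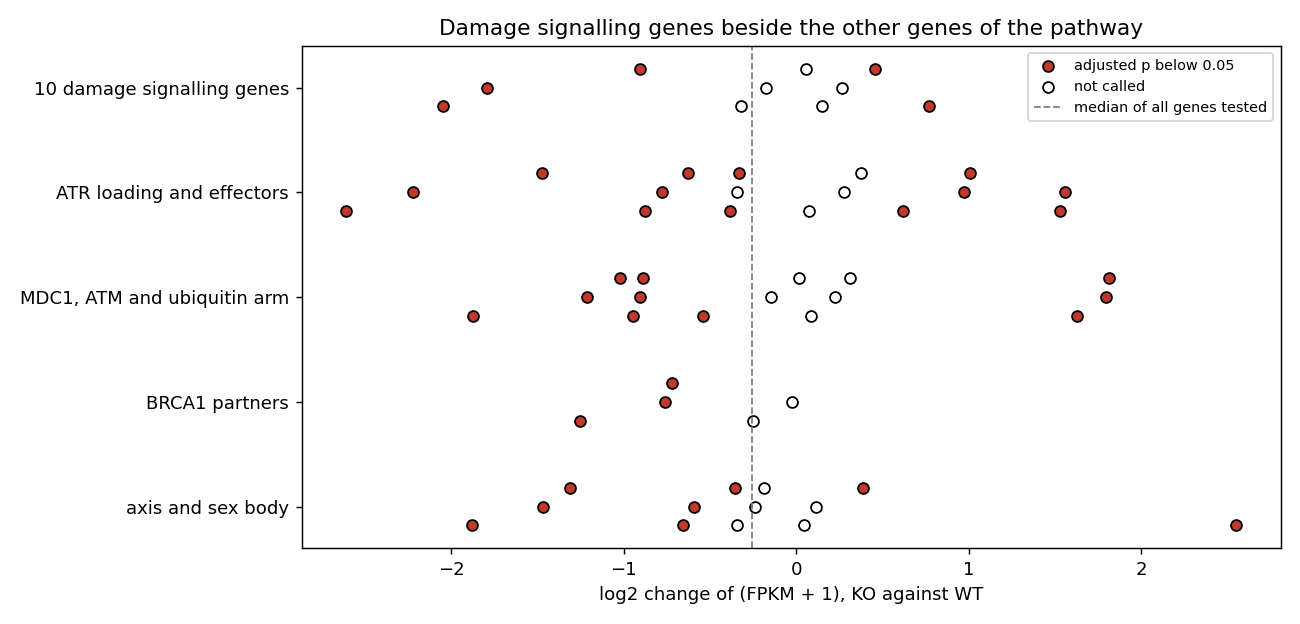
Log2 change of FPKM + 1 in KO against WT (horizontal axis) of each tested gene in the 10 damage signalling genes and the 4 other lists (vertical axis); filled points had an adjusted p below 0.05 and the dashed line is the median of all genes, -0.26. Each list spreads on both sides of the line, with Mdc1 at -2.05 and Brca1 at 0.77 as the ends of the 10 genes.

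The protein-coding genes whose profiles lay nearest to those of Atr, Mdc1 and H2afx were looked up among 12165 candidates by the distance between log2(FPKM + 1) profiles, each centred on its mean over the 6 libraries. Nearest to Atr were Stk39 (distance 0.0556), Mroh1 (0.0832) and Eif2b5 (0.0895), with Pearson's r over the 6 libraries of 0.9998, 0.9995 and 0.9996. Stk39, a stress-related kinase, stood at 132 and 145 FPKM in EE_KO, at 35.1 and 37.6 in KO and at 134.6 and 117 in WT. Nearest to Mdc1 were Larp1 (0.0701), Vps4a (0.0738) and Wdr17 (0.0926). Nearest to H2afx were Banp (0.163), Cables2 (0.167) and Akap8l (0.179), at greater distances than those of Atr and Mdc1. The points of each profile are 3 groups of 2 libraries, so likeness mostly reflects the 3 group means.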

How the data were processed

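Per the file headers, the authors deposited FPKM for 54532 Ensembl genes in each of 6 libraries; a SMARTer kit and 1.3 µg of total RNA made each library, per the labels' protocols. GRCm38 and mm10 are the builds in the submitters' processing notes, while aligner, counter and strand are not given there or in the labels. GENCODE M21 gave symbols and exon-union lengths for 54495 genes. FPKM times length came out as whole reads (tolerance 0.01) for 96.8% to 97.0% of values above 0, or 14178387 to 16565238 reads on genes per library; 1 read over a 2 kb gene is 0.0278 to 0.0357 FPKM.

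Genes with a mean of at least 1 FPKM entered 1 limma model (version 3.58.1, R 4.3.3) of group means over all 6 libraries, on the scale log2(FPKM + 1), with a trend of variance on level; a call is a p below 0.05 after Benjamini-Hochberg adjustment for 15907 genes. The added 1 understates changes of low genes. The pipeline was tested on simulated counts for KO against WT with an assumed spread. It called 78% of 50 genes with a 2-fold rise but only 44% of 50 with a 2-fold fall. For 4-fold changes it called 98% of rises and 88% of falls, and of unchanged genes 0.0892%. The shares are of every gene simulated, tested or not: 15703 were unchanged, and 13946 in all were tested. How far these shares hold for the real libraries, with 84.8% of genes called in KO against WT, was not tested. Tables and figures used Python 3.11.15. Nothing says that libraries of a group came from separate animals, so the spread behind the p-values may be technical only.

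The members and lists were chosen with earlier results of these data known. Named are all members, the 2 largest called rises and falls of each pathway list in KO against WT, the 3 nearest profiles and the 2 highest genes of marker lists; other names, such as overlapping genes and list genes too low to test, were chosen after values were seen. Each comparison was repeated with a replicate block, with TPM or quantile-normalized values, with pseudocounts of 0.1 and 0.5, with a filter at 5 FPKM or none, without the trend, on its own groups alone and without each library; voom on recovered reads and leaving out short RNA genes were added after seeing the data. Protein sequences were not used here.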

Additional observations from a re-analysis of the deposited data

How the results depend on the processing

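Over 17 alternatives the calls of Atr, Mdc1, Bard1 and Brca1 against WT (in KO) and against KO (in EE_KO) held wherever the gene was tested, with ranges of -1.92 to -1.45 for Atr, -2.13 to -1.47 for Mdc1, -1.14 to -0.66 for Bard1 and 0.68 to 1.36 for Brca1 in KO against WT. The members called up in KO against WT numbered 2, but 4 with TPM, 3 with quantile normalization and 1 with at least 5 FPKM, a filter that only 4 members pass; leaving out 1 library gave 1 to 2. The members called down in EE_KO against KO numbered 1, but 3 with TPM, 2 with quantile normalization and 0 with at least 5 FPKM (limma; voom called 1); leaving out 1 library gave 1 to 2. TPM and quantile normalization move the median of all genes in KO against WT from -0.26 to 0.12 and 0.04. Changes that were not called turned sign as follows. With TPM, Rad1 stood at 0.12 in KO against WT; Hus1 at 0.00247, Bard1 at 0.024 and Mdc1 at 0.00448 in EE_KO against WT; and Atrip at -0.35 and Topbp1 at -0.35 in EE_KO against KO, the last of these called down. With quantile normalization, Rad1 stood at 0.16 in KO against WT, Bard1 at 0.00636 and Mdc1 at 0.031 in EE_KO against WT, and Atrip at -0.10 and Topbp1 at -0.21 in EE_KO against KO. Leaving out 1 library gave ranges of -0.010 to 0.13 for Topbp1 and -0.12 to 0.42 for Rnf8 in KO against WT; -0.080 to 0.062 for Bard1, -0.15 to 0.11 for Hus1 and -0.075 to 0.014 for Mdc1 in EE_KO against WT; and -0.075 to 0.11 for Atrip, -0.027 to 0.11 for Topbp1 and -0.34 to 0.21 for Rnf8 in EE_KO against KO. The cause was not tested. Where a group was left with 1 library, that library is assumed to vary like the others. The replicate numbers are not said to pair libraries, and differences between replicates 1 and 2 correlated at -0.0176 (KO with WT), 0.0686 (EE_KO with WT) and 0.0767 (EE_KO with KO) over genes; with the replicate block 2 members were called up and 3 down in KO against WT and 3 up and 1 down in EE_KO against KO, as without it. Depth limits Rad1 most, at 166 to 266 reads per library, and Atrip, at 168 to 353.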
